A study of Mus musculus with 12 samples.

Results

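The miR-10/99/100 family was followed in C166 cells, an endothelial line derived from mouse yolk sac. Its members were taken by name: every entry of the deposited table called miR-10a, miR-10b, miR-99a, miR-99b or miR-100, with either arm of the hairpin. This gave 8 of the 350 miRNAs in the table, namely the 5p arms of all 5 hairpins and the 3p arms of miR-10a, miR-10b and miR-99b. miR-99a-3p and miR-100-3p are not rows of the table and were not analysed here. Small RNA was sequenced from 12 libraries in 6 groups of 2, the nuclear and the cytoplasmic fraction of cells kept for 2 h or 24 h at 1% oxygen (hypoxia) and of cells kept in normoxia at atmospheric oxygen (0 h). All cells came from 1 line, grown in the same serum-containing medium, and were split before the treatment. The study calls the replicates biological, but neither it nor the labels says how the cultures were separated, so the p-values measure the spread between these libraries.

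A miRNA hairpin is cut into a duplex, and either strand can be loaded into an Argonaute protein, where the seed near the 5′ end pairs with target transcripts. The miR-10 hairpins lie within Hox clusters and were conserved across animals, and miR-10 has been shown to promote vessel growth in zebrafish and in human endothelial cells. miR-99a, miR-99b and miR-100 are made from clusters shared with let-7 and miR-125 genes, and the kinase mTOR is a known target of their common seed. Most miRNAs act in the cytoplasm, but mature miRNAs and Argonaute proteins are also found in nuclei, and the design asked how each miRNA is divided between these compartments before and during hypoxia.

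The mature sequences define how the members can be told apart and which of them share a seed, so those of the 8 members are shown, 5′ to 3′, from RefSeq on GRCm38.p6, with the seed (bases 2 to 8) in capitals. The first pair has the seed ACCCUGU.
miR-10a-5p: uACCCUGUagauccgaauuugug
miR-10b-5p: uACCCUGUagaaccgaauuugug
The next 3 have the seed ACCCGUA.
miR-99a-5p: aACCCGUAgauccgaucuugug
miR-99b-5p: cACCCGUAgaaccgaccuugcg
miR-100-5p: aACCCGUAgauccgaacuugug
The 3p arms each have a seed of their own among the measured miRNAs.
miR-10a-3p: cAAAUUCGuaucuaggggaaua
miR-10b-3p: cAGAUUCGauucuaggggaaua
miR-99b-3p: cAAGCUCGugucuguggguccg
No other measured miRNA with a RefSeq sequence (301 of the 350 names) had any of these seeds.

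Counting positions from 1 at the 5′ end, miR-10a-5p and miR-10b-5p differ by the single substitution U12A, and miR-99a-5p and miR-100-5p by U16A. miR-99a-5p and miR-99b-5p differ by A1C, U11A, U16C and U21C, and miR-10a-3p and miR-10b-3p by A3G, U9A and A10U, of which A3G lies in the seed. The miR-10 and miR-99/100 sequences are offset by 1 base: a run of 11 bases starts at base 7 of miR-10a-5p and at base 6 of miR-100-5p. Reads of pairs that differ at 1 base can be assigned to the wrong member by an alignment that allows a mismatch, so the split within each of these pairs is uncertain.

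On GRCm38 (GENCODE vM21), all 5 hairpins lie on the plus strand. Mir10a (chr11:96317165-96317274) overlaps no other annotated gene and has Hoxb4 as its nearest protein-coding gene. Mir10b (chr2:74726070-74726137) lies in introns of Hoxd3 and Hoxd4. Mir99a (chr16:77598936-77599000) is in an intron of the non-coding host Mir99ahg and, on the opposite strand, of the protein-coding gene Gm11146. Mirlet7c-1 lies 656 bases and Mir125b-2 47272 bases away from it. Mir99b (chr17:17830188-17830257) is in an intron of Spaca6, 94 bases from Mirlet7e and 554 bases from Mir125a. Mir100 (chr9:41531425-41531504) is in introns of the non-coding genes 3110039I08Rik and Gm49317 and overlaps an exon of Gm48742 on the opposite strand, with Mirlet7a-2 5211 bases and Mir125b-1 50421 bases away.

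The deposited values are normalized counts, that is, reads divided by 1 size factor per library, and every value returned a whole number of reads (within 0.01). The nuclear libraries held 3379276 to 4375616 such reads and the cytoplasmic libraries 4708753 to 7787926. miR-21a-5p alone took 37.4 to 57.2% of reads in the nucleus and 48.8 to 60.3% in the cytoplasm. miR-210-3p, the miRNA best known to respond to hypoxia, had nuclear counts of 12744 and 11948 after 24 h of hypoxia against 1684 and 1758 in normoxia. Its cytoplasmic counts were 6154 and 6195 after 24 h against 1284 and 1206 in normoxia, so the 24 h libraries were the higher ones on either side. Of the 4 endothelial arms of miR-126 sought, only miR-126a-3p was in the table, at 332 to 766 in nuclear and 476 to 860 in cytoplasmic libraries. None of 4 blood cell miRNAs was in the table, and 2 of 5 epithelial ones were, summing to 52.6 to 185 in nuclear and 66.4 to 245 in cytoplasmic libraries. Of 3 muscle miRNAs only miR-206-3p was in the table, at 271 to 926 in nuclear and 250.5 to 347 in cytoplasmic libraries. The liver miRNA miR-122-5p had 21.8 to 53.8 in nuclear and 30.2 to 155 in cytoplasmic libraries, and 1 of 2 neuronal ones (miR-9-5p) 45.2 to 82.5 in nuclear and 34.0 to 50.4 in cytoplasmic libraries. The part of these markers of other cell types in the results was not tested. The table holds miRNAs only, so the purity of the fractions was not checked here.

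The 5p arms of the family were among the most abundant miRNAs of these cells. By mean normalized count miR-99b-5p ranked 8, miR-99a-5p 11, miR-100-5p 12, miR-10a-5p 17 and miR-10b-5p 24 of 350, while the 3p arms ranked 56 (miR-99b-3p), 226 (miR-10a-3p) and 276 (miR-10b-3p). The least abundant, miR-10b-3p, rested on 12 to 191 reads per library. miR-99b-5p averaged 61057 ± 6822 normalized counts in nuclear and 71552 ± 11207 in cytoplasmic libraries (SD, n = 6 each). miR-99a-5p averaged 44990.0 ± 8289.5 in nuclear and 64173 ± 9974 in cytoplasmic libraries. miR-100-5p averaged 47889 ± 9106 in nuclear and 60058 ± 9777 in cytoplasmic libraries, so miR-99a-5p and miR-100-5p, neighbours in the order, lay within 1 SD of each other in each fraction. miR-10a-5p averaged 30894 ± 2711 in nuclear and 34767 ± 5323 in cytoplasmic libraries. miR-10b-5p, the lowest 5p arm in both, averaged 12277 ± 2903 in nuclear and 26915 ± 7665 in cytoplasmic libraries. Together the 8 members took 3.40 to 4.48% of reads in the nuclear libraries (median 3.84%) and 5.55 to 6.25% in the cytoplasmic libraries (median 5.74%), with no overlap. As normalized counts their sum did overlap, with 235798 in nuclear 24 h replicate 2 against 233241 and 221955 in the cytoplasmic 24 h libraries. These percentages are shares of the reads of the 350 miRNAs left after the read filter, not of all small RNA of a fraction. Libraries were pooled in equimolar quantities by the study, so the percentages are not molecules per cell. In bulk samples fewer cells and less RNA per cell cannot be told apart.

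**Figure D1:**
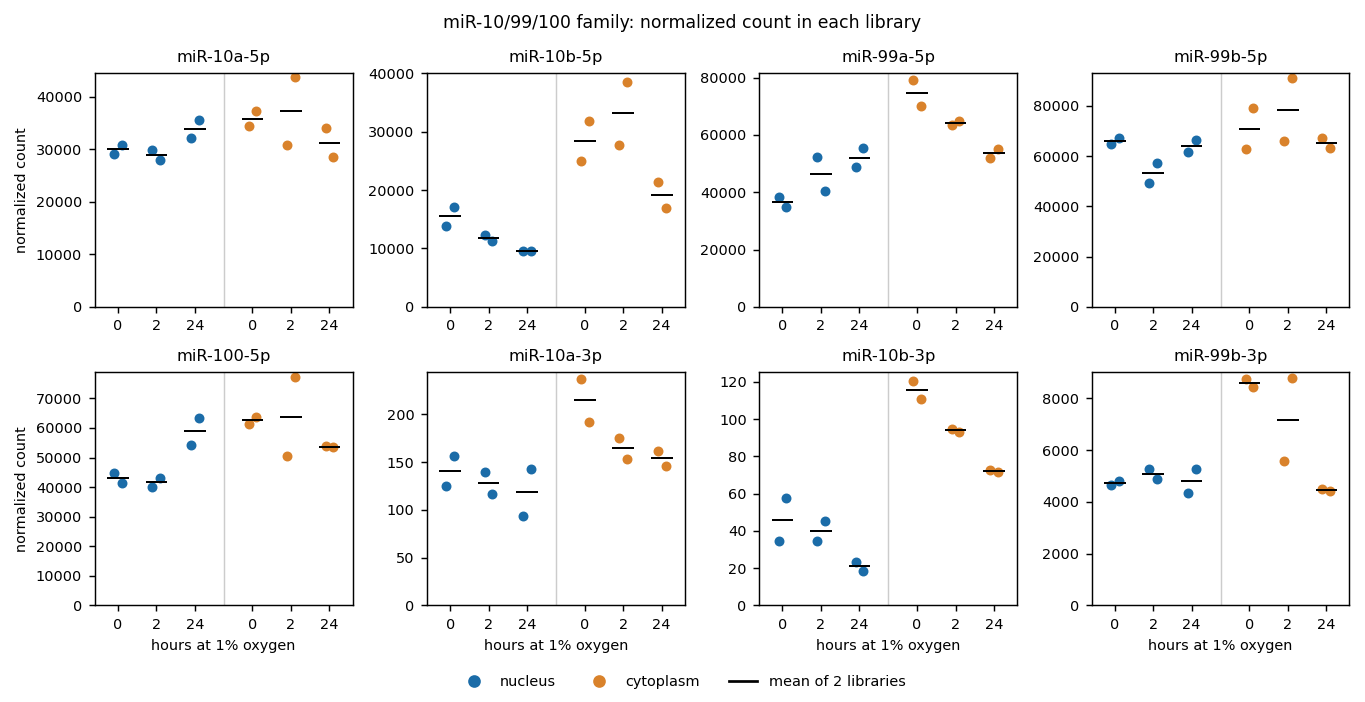
Normalized count (vertical axis, linear, from 0) of the 8 members in each of the 12 libraries, against hours at 1% oxygen, with nuclear libraries in blue on the left of each panel and cytoplasmic libraries in orange on the right. Points are libraries and bars the mean of 2 libraries. Both arms of miR-10b lie lower in the nucleus at each time, and the nuclear and cytoplasmic values of miR-99a-5p converge at 24 h.

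Members of the family were either lower in the nucleus or not past the threshold, and of the 8 the arms of miR-10b had the largest difference between the fractions over all times. Over all times, 4 of 8 members were lower in the nucleus and 0 higher in limma at an adjusted p under 0.05, where 56.0% of all 350 miRNAs passed in either direction and 28.9% were lower in the nucleus. They were miR-10b-5p, miR-10b-3p, miR-99a-5p and miR-10a-3p. The median log2 nucleus/cytoplasm ratio was -0.43 over the 8 members and 0.03 over all miRNAs. At 0 h, 6 of 8 were lower, where 62.6% of all miRNAs passed and 31.1% were lower. At 2 h, 6 of 8 were again lower, where 63.1% passed and 32.9% were lower. At 24 h only the 2 arms of miR-10b passed, both lower, where 42.6% passed and 21.4% were lower. The member medians at 0 h, 2 h and 24 h were -0.73, -0.52 and -0.04, beside -0.02, 0.02 and 0.11 over all miRNAs. The count at 2 h fell on leaving out nuclear 2 h replicate 1 or cytoplasmic 2 h replicate 2. How many of all miRNAs passed in such fits was not examined. Scaled to the total count, 8 members were lower over all times, where 118 of all 350 miRNAs were lower (101 as deposited). At 24 h this scaling gave 5 lower members, beside 135 of all miRNAs (75 as deposited). Scaled to miR-186-5p, 2 members were lower at 0 h, beside 75 of all miRNAs (109 as deposited).

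**Figure D2:**
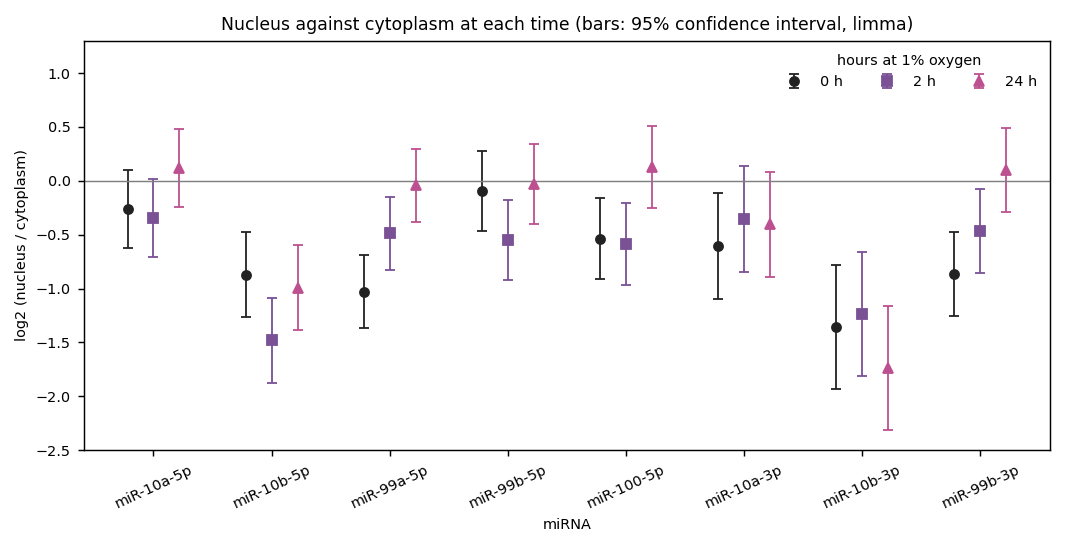
Log2 nucleus/cytoplasm ratio of each member at 0 h, 2 h and 24 h (vertical axis, with 0 marking equal levels); points are limma estimates from 2 libraries per group and bars their 95% confidence interval. The ratio of miR-99a-5p is -1.03 at 0 h and -0.04 at 24 h, while both arms of miR-10b stay below 0 at each time.

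Both arms of miR-10b were lower in the nucleus at each time. miR-10b-5p, the main product of the Hoxd hairpin, had normalized nuclear counts of 13881 and 17152 (0 h), 12264 and 11229.7 (2 h) and 9629 and 9504 (24 h). Cytoplasmic counts were 25033 and 31777 (0 h), 27752 and 38569.8 (2 h) and 21446 and 16909 (24 h). The highest nuclear library (0 h, replicate 2) lay above the lowest cytoplasmic library (24 h, replicate 2), but at each single time the fractions did not overlap. Its log2 nucleus/cytoplasm ratio over all times was -1.11 ± 0.20 (SE, limma adjusted p = 0.00025), a 2.16-fold lower level in the nucleus. By time the ratio was -0.87 ± 0.19 (SE, limma adjusted p = 0.00056) at 0 h. It was -1.48 ± 0.19 (SE, limma adjusted p = 3.0e-06) at 2 h and -0.99 ± 0.19 (SE, limma adjusted p = 0.00044) at 24 h. miR-10b-3p, the other strand of this hairpin, had nuclear counts of 34.5 and 57.4 (0 h), 34.3 and 45.2 (2 h) and 23.5 and 18.7 (24 h). Its cytoplasmic counts were 120.2 and 111 (0 h), 94.9 and 93.1 (2 h) and 72.9 and 71.7 (24 h), and all 6 nuclear libraries lay below all 6 cytoplasmic libraries. Its ratio over all times was -1.44 ± 0.25 (SE, limma adjusted p = 0.00018), or 2.72-fold. At 0 h, 2 h and 24 h it was -1.36, -1.23 and -1.74, each past the threshold. Both arms stayed lower in the nucleus under every scaling and left-out library tried. Scaled to miR-186-5p, miR-10b-5p missed the threshold at 0 h, at -0.59 (limma adjusted p = 0.094).

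The arms of miR-10a, made from the Hoxb cluster, lay closer together between the fractions. miR-10a-5p, which differs from miR-10b-5p at 1 base outside the seed, had nuclear counts of 29180.1 and 30727 (0 h), 29765 and 27939 (2 h) and 32149 and 35606 (24 h). Cytoplasmic counts were 34424 and 37202 (0 h), 30834 and 43683 (2 h) and 34028 and 28431 (24 h). The fractions overlapped over all times and at 24 h, and at 0 h and 2 h the nuclear libraries lay lower. The log2 ratio over all times was -0.16 (95% confidence interval -0.43 to 0.11, limma adjusted p = 0.30). By time it was -0.26 (0 h), -0.35 (2 h) and 0.12 (24 h), none past the threshold, and scaled to miR-186-5p it turned to 0.026 at 0 h and -0.071 at 24 h. It passed when scaled to the total less miR-21a-5p, at -0.80 (limma adjusted p = 2.7e-05) at 0 h and -0.76 (limma adjusted p = 6.3e-05) at 2 h, and at 2 h also when scaled to the total count, at -0.51 (limma adjusted p = 0.0068). On leaving out cytoplasmic 2 h replicate 1, the ratio at 2 h was -0.60 (limma adjusted p = 0.0060). miR-10a-3p, whose seed carries the substitution A3G against miR-10b-3p, had nuclear counts of 125 and 156 (0 h), 140.1 and 117 (2 h) and 94.0 and 143 (24 h). Its cytoplasmic counts were 237 and 192 (0 h), 176 and 153 (2 h) and 162 and 146 (24 h), with 1 nuclear library (0 h, replicate 2) above the lowest cytoplasmic ones. Its ratio over all times was -0.46 ± 0.17 (SE, limma adjusted p = 0.034) and at 0 h -0.61 ± 0.23 (SE, limma adjusted p = 0.031). The call over all times was lost in 6 of 12 fits with 1 library left out, at -0.45 (nuclear 0 h replicate 1), -0.43 (nuclear 2 h replicate 2), -0.37 (nuclear 24 h replicate 1), -0.37 and -0.43 (cytoplasmic 0 h replicates 1 and 2) and -0.46 (cytoplasmic 2 h replicate 1). That at 0 h was lost on leaving out nuclear 0 h replicate 1 (-0.45) or cytoplasmic 0 h replicate 1 (-0.46).

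miR-99a-5p had the largest distance between the fractions in normoxia among the 5p arms and a small one after 24 h. Its nuclear counts were 38234 and 34994 (0 h), 52225 and 40312 (2 h) and 48695 and 55481 (24 h). Cytoplasmic counts were 79312 and 70253 (0 h), 63631 and 64753 (2 h) and 51999 and 55091 (24 h). The nuclear libraries lay below the cytoplasmic ones at 0 h and 2 h and overlapped them at 24 h, when the cytoplasmic libraries were at their lowest. At 0 h the log2 ratio was -1.03 ± 0.16 (SE, limma adjusted p = 2.3e-05), 2.04-fold lower in the nucleus. At 2 h it was -0.48 ± 0.16 (SE, limma adjusted p = 0.015) and at 24 h -0.04 (95% confidence interval -0.38 to 0.30, limma adjusted p = 0.84). Over all times it was -0.52 ± 0.15 (SE, limma adjusted p = 0.0080). The call at 2 h was lost on leaving out nuclear 2 h replicate 2, at -0.30 (limma adjusted p = 0.23). Scaled to the total count the ratio at 24 h was -0.49 (limma adjusted p = 0.014).

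miR-100-5p, which shares its seed with miR-99a-5p and differs from it at 1 base, had nuclear counts of 44901 and 41507 (0 h), 40134 and 43053 (2 h) and 54377 and 63359 (24 h). Cytoplasmic counts were 61465 and 63787 (0 h), 50543 and 77118 (2 h) and 53921 and 53513 (24 h). Nuclear libraries lay lower at 0 h and 2 h, and at 24 h both nuclear libraries lay above both cytoplasmic libraries. The log2 ratio was -0.54 ± 0.18 (SE, limma adjusted p = 0.015) at 0 h. It was -0.59 ± 0.18 (SE, limma adjusted p = 0.0090) at 2 h and 0.13 (95% confidence interval -0.25 to 0.51, limma adjusted p = 0.56) at 24 h, and the last turned to -0.32 when scaled to the total count. Over all times the ratio was -0.33 ± 0.15 (SE, limma adjusted p = 0.067), which missed the threshold, and on leaving out nuclear 24 h replicate 2 it was -0.42 (limma adjusted p = 0.021). The call at 0 h was lost on leaving out nuclear 0 h replicate 2, at -0.48 (limma adjusted p = 0.084). That at 2 h was lost on leaving out nuclear 2 h replicate 1, at -0.54 (limma adjusted p = 0.054), or cytoplasmic 2 h replicate 2, at -0.28 (limma adjusted p = 0.13).

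miR-99b-5p, the most abundant member, did not pass at 0 h or 24 h as the counts were deposited. Its nuclear counts were 64778 and 67114 (0 h), 49306 and 57158 (2 h) and 61586 and 66402 (24 h). Cytoplasmic counts were 62665 and 79129 (0 h), 66106 and 90923 (2 h) and 67119 and 63368 (24 h). The fractions overlapped at 0 h and 24 h, and at 2 h the nuclear libraries lay lower. The log2 ratio was -0.09 (95% confidence interval -0.46 to 0.27, limma adjusted p = 0.67) at 0 h, where it turned to 0.19 when scaled to miR-186-5p, and -0.03 (95% confidence interval -0.40 to 0.34, limma adjusted p = 0.90) at 24 h. Scaled to the total less miR-21a-5p it passed at 0 h, at -0.64 (limma adjusted p = 0.00028), and scaled to the total count at 24 h, at -0.48 (limma adjusted p = 0.010). At 2 h it was -0.55 ± 0.18 (SE, limma adjusted p = 0.012), and this call was lost on leaving out nuclear 2 h replicate 1, at -0.44 (limma adjusted p = 0.11), or cytoplasmic 2 h replicate 2, at -0.32 (limma adjusted p = 0.13). miR-99b-3p, the most abundant 3p arm, had nuclear counts of 4662 and 4791 (0 h), 5258 and 4867 (2 h) and 4331 and 5284 (24 h). Its cytoplasmic counts were 8738 and 8452 (0 h), 5561 and 8796 (2 h) and 4491 and 4424 (24 h), where the 24 h libraries were the lowest. Nuclear libraries lay below cytoplasmic ones at 0 h and 2 h and overlapped them at 24 h. The ratio was -0.86 ± 0.19 (SE, limma adjusted p = 0.00056) at 0 h, -0.47 at 2 h (limma adjusted p = 0.037) and 0.10 at 24 h (limma adjusted p = 0.66, turned to -0.35 when scaled to the total count). The call at 2 h was lost in 5 of 12 fits with 1 library left out, at -0.52 and -0.41 (replicates 1 and 2 of the nucleus at 2 h), -0.14 (replicate 2 of the cytoplasm at 2 h) and -0.47 (either replicate of the cytoplasm at 24 h). Over all times the ratio of -0.41 missed the threshold (limma adjusted p = 0.079), and it passed without replicate 1 (-0.51) or replicate 2 (-0.52) of the cytoplasm at 24 h, or with time as a further term, at -0.41 (limma adjusted p = 0.043).

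After 24 h of hypoxia the members moved in different directions in the nucleus. miR-99a-5p and miR-100-5p rose and both arms of miR-10b fell there, so 4 of 8 members passed, where 46.6% of all miRNAs passed and 24.6% were lower at 24 h. In the cytoplasm miR-99b-3p, miR-10b-3p and miR-10b-5p fell and none rose, where 35.1% of all miRNAs passed and 20.9% were lower. The 8 members had a median log2 fold change of -0.01 in nuclear and -0.47 in cytoplasmic libraries, beside -0.02 and -0.10 over all miRNAs. The comparisons at 2 h and 24 h share the 0 h libraries. Leaving out a 0 h or 24 h library leaves 1 in its group, and member calls were lost in each fraction on doing so. How many of all miRNAs passed in such fits was not examined, so a loss particular to the members cannot be told from a general one. The cytoplasmic count fell to 0 when scaled to the total count or to miR-186-5p, where 32 and 26 of all 350 miRNAs were lower (73 as deposited).

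**Figure D3:**
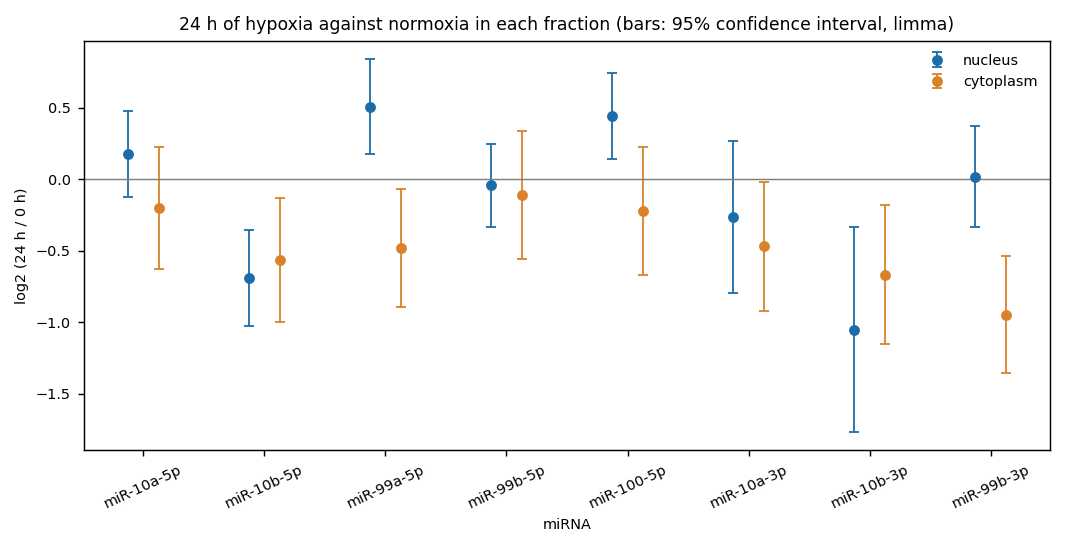
Log2 fold change of each member between 24 h of hypoxia and normoxia (vertical axis, with 0 marking no change), in the nucleus in blue and the cytoplasm in orange; points are limma estimates from 2 libraries per group and bars their 95% confidence interval. miR-99a-5p is at 0.51 in the nucleus and -0.48 in the cytoplasm, and miR-10b-5p is at -0.69 and -0.57.

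In the nucleus, miR-99a-5p was 1.42-fold higher at 24 h, at a log2 value of 0.51 ± 0.15 (SE, limma adjusted p = 0.014), and miR-100-5p was 1.36-fold higher, with 0.44 ± 0.14 (SE, limma adjusted p = 0.018). For both, the 24 h libraries lay above the 0 h libraries. miR-10b-5p was 1.61-fold lower, with -0.69 ± 0.16 (SE, limma adjusted p = 0.0023), and miR-10b-3p 2.07-fold lower, with -1.05 ± 0.33 (SE, limma adjusted p = 0.018), again with no overlap. miR-10a-5p had 0.18, miR-99b-5p -0.04, miR-10a-3p -0.27 and miR-99b-3p 0.02, none past the threshold, though the 24 h libraries of miR-10a-5p also lay above its 0 h libraries. Scaled to the total less miR-21a-5p, all 3 of miR-10a-5p (0.64, limma adjusted p = 0.00048), miR-99b-5p (0.41, limma adjusted p = 0.014) and miR-99b-3p (0.48, limma adjusted p = 0.015) were higher at 24 h, as were miR-99a-5p and miR-100-5p, and neither miR-10b arm passed. The miR-99a-5p call was lost without replicate 2 of 0 h (0.44), replicate 1 of 24 h (0.60) or replicate 2 of 24 h (0.41), that of miR-100-5p without replicate 2 of 0 h (0.39) or of 24 h (0.33), and that of miR-10b-3p without replicate 2 of 0 h (-0.69), replicate 1 of 24 h (-1.21) or replicate 2 of 24 h (-0.89). Scaled to miR-186-5p, miR-99a-5p had 0.34 (limma adjusted p = 0.17) and miR-100-5p 0.28 (limma adjusted p = 0.26), and with the total less miR-21a-5p, miR-10b-5p had -0.23 (limma adjusted p = 0.20) and miR-10b-3p -0.60 (limma adjusted p = 0.13).

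In the cytoplasm, miR-99b-3p was 1.93-fold lower at 24 h, at a log2 value of -0.95 ± 0.20 (SE, limma adjusted p = 0.00072). Its call held in each of the 6 fits with 1 library left out, and scaled to the total count it was -0.52 (limma adjusted p = 0.058) and to miR-186-5p -0.64 (limma adjusted p = 0.13). miR-10b-3p had -0.67 ± 0.24 (SE, limma adjusted p = 0.031) and miR-10b-5p -0.57 ± 0.21 (SE, limma adjusted p = 0.037), with the 24 h libraries below the 0 h libraries for all 3. The same held for miR-10a-5p, miR-99a-5p, miR-100-5p and miR-10a-3p, which did not pass, so this separation does not mark out the members called. With 2 libraries per group it can arise by chance. Its share over all miRNAs was not counted, here or in the other comparisons. The miR-10b-5p call was lost under every other scaling, at -0.14 (limma adjusted p = 0.57) with the total, -0.43 (limma adjusted p = 0.071) with the total less miR-21a-5p, -0.26 (limma adjusted p = 0.58) with miR-186-5p and -0.51 (limma adjusted p = 0.052) with size factors set within the fraction. That of miR-10b-3p was lost with the same totals, at -0.25 (limma adjusted p = 0.48) and -0.53 (limma adjusted p = 0.13), and with miR-186-5p, at -0.36 (limma adjusted p = 0.25). miR-99a-5p had -0.48 ± 0.20 (SE, limma adjusted p = 0.064) and miR-10a-3p -0.47 ± 0.22 (SE, limma adjusted p = 0.093), and neither passed. miR-100-5p, miR-10a-5p and miR-99b-5p had -0.22, -0.20 and -0.11, and scaled to the total count these turned to 0.21, 0.22 and 0.32. The miR-10b-5p call was lost without replicate 2 of 0 h (-0.39), replicate 1 of 24 h (-0.74) or replicate 2 of 24 h (-0.39), and that of miR-10b-3p without replicate 1 of 0 h (-0.61), replicate 1 of 24 h (-0.68) or replicate 2 of 24 h (-0.66). miR-10a-3p passed without replicate 2 of 0 h (-0.62) and miR-99a-5p without replicate 1 or replicate 2 of 2 h (-0.48 each).

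The response at 24 h was then compared between the fractions, as the nuclear minus the cytoplasmic log2 fold change. It was more positive in the nucleus for 3 of 8 members and more negative for 0, where 46.3% of all miRNAs passed and 25.1% were more positive. The difference was 0.99 ± 0.23 (SE, limma adjusted p = 0.0027) for miR-99a-5p. For miR-99b-3p it was 0.96 ± 0.26 (SE, limma adjusted p = 0.0079) and for miR-100-5p 0.66 ± 0.25 (SE, limma adjusted p = 0.042). miR-10b-5p had -0.12 (95% confidence interval -0.68 to 0.44, limma adjusted p = 0.73) and miR-10b-3p -0.38 (95% confidence interval -1.20 to 0.43, limma adjusted p = 0.41). For miR-10a-5p, miR-99b-5p and miR-10a-3p it was 0.38, 0.07 and 0.20, and that of miR-10a-5p passed when scaled to the total less miR-21a-5p, at 0.70 (limma adjusted p = 0.0072). The miR-99a-5p call held in each of 12 fits with 1 library left out, that of miR-99b-3p was lost on leaving out nuclear 24 h replicate 2 (0.82), and that of miR-100-5p was lost in 7 of 12, at 0.55 to 0.72, namely without either replicate of the nucleus at 0 h, replicate 2 of the nucleus at 24 h or any 1 of the 4 cytoplasmic libraries of 0 h and 24 h. Scaled to the total count, the difference was 0.57 (limma adjusted p = 0.049), 0.55 (limma adjusted p = 0.11) and 0.25 (limma adjusted p = 0.38) for miR-99a-5p, miR-99b-3p and miR-100-5p, and scaled to miR-186-5p it was 0.51 (limma adjusted p = 0.14), 0.49 (limma adjusted p = 0.32) and 0.19 (limma adjusted p = 0.72).

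At 2 h of hypoxia no member passed in either fraction. In the nucleus limma passed 0 of 8, where 7.14% of all miRNAs passed. At an unadjusted p under 0.05 there were 2 of 8 members, beside 102 of all 350 miRNAs. The estimates there ran between -0.39 for miR-10b-5p and 0.33 for miR-99a-5p, and miR-99b-5p had -0.31. On leaving out nuclear 0 h replicate 1, miR-10b-5p had -0.55 (limma adjusted p = 0.048). In the cytoplasm limma passed 0 of 8, with 0 at an unadjusted p under 0.05, where 0.0% of all miRNAs passed and 39 of 350 had an unadjusted p under 0.05. The estimates ran between -0.38 for miR-10a-3p and 0.21 for miR-10b-5p. limma-voom on the recovered reads also passed 0 members in each fraction at 2 h.

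The threshold of the study, an adjusted p under 0.01 and at least 2-fold, was applied here to the limma fits. The study used DESeq2, so its own calls can differ. At this threshold fewer members passed. Over all times the 2 arms of miR-10b did, where 29.7% of all miRNAs passed. At 0 h miR-99a-5p and miR-10b-3p did, at 2 h both arms of miR-10b and at 24 h miR-10b-3p, where 37.7%, 35.7% and 15.7% of all miRNAs passed at these times. Between 24 h and 0 h 0 of 8 passed in nuclear and 0 in cytoplasmic libraries, where 20.9% and 13.7% of all miRNAs did, and 0 passed for the difference between the responses, where 22.6% did.

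A ratio of 2 miRNAs within a library does not depend on how libraries are scaled, so 5 such ratios were compared between the 6 nuclear and the 6 cytoplasmic libraries. The log2 ratio of miR-10b-5p to miR-10a-5p was -1.07 and -0.84 (0 h), -1.28 and -1.31 (2 h) and -1.74 and -1.91 (24 h) in nuclear libraries. In cytoplasmic libraries it was -0.46 and -0.23 (0 h), -0.15 and -0.18 (2 h) and -0.67 and -0.75 (24 h). All nuclear libraries lay below all cytoplasmic libraries, and in both fractions the 24 h libraries were the lowest. The mean was -1.36 ± 0.40 for nuclear and -0.41 ± 0.26 for cytoplasmic libraries (SD, n = 6 each), a difference of -0.95 (exact permutation test, 2-sided, p = 0.0022, the smallest this design allows, adjusted p = 0.011 over the 5 ratios). Put as a ratio of counts, miR-10b-5p stood at 0.390 of miR-10a-5p in the nucleus and 0.755 in the cytoplasm (geometric means). As these members differ at 1 base, the part of misassigned reads in this ratio was not tested. The ratio of miR-99a-5p to miR-100-5p was -0.25 to 0.38 in the nucleus and -0.25 to 0.37 in the cytoplasm, with a difference of -0.19 (exact permutation test, adjusted p = 0.25).

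**Figure D4:**
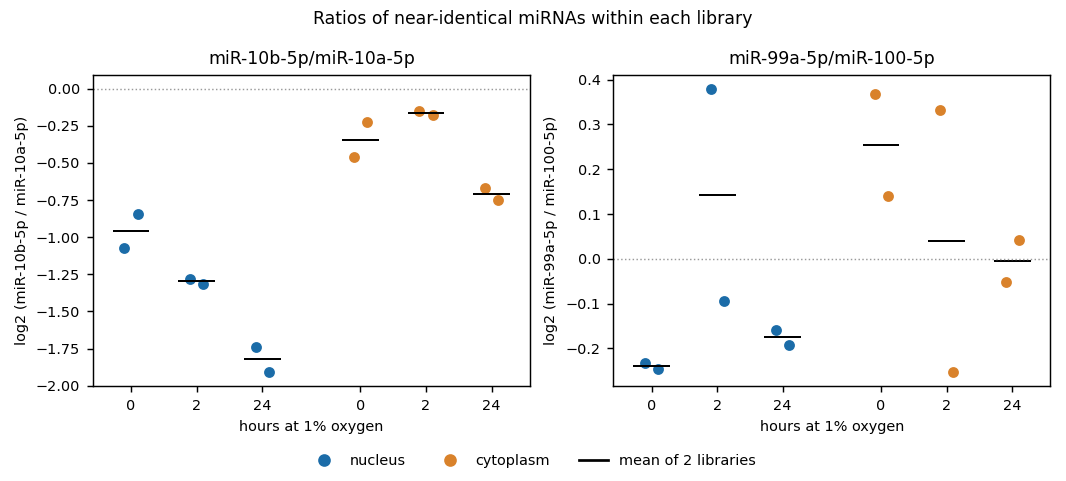
Log2 ratio within each library of miR-10b-5p to miR-10a-5p (left panel) and of miR-99a-5p to miR-100-5p (right panel), against hours at 1% oxygen, with nuclear libraries in blue and cytoplasmic libraries in orange; bars are the mean of 2 libraries. In the left panel the fractions do not overlap (means -1.36 in the nucleus and -0.41 in the cytoplasm), and in the right panel they do.

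The 5p arm dominated each hairpin with both arms measured. The log2 ratio of 5p to 3p arm was 8.50 ± 0.37 for nuclear and 8.14 ± 0.34 for cytoplasmic libraries of miR-10b (SD, n = 6 each). It was 7.92 ± 0.27 for nuclear and 7.62 ± 0.32 for cytoplasmic libraries of miR-10a and 3.64 ± 0.23 for nuclear and 3.46 ± 0.40 for cytoplasmic libraries of miR-99b. The difference between the fractions was 0.36 (exact permutation test, adjusted p = 0.19) for miR-10b, 0.30 (exact permutation test, adjusted p = 0.19) for miR-10a and 0.19 (exact permutation test, adjusted p = 0.37) for miR-99b, so none passed. On leaving out cytoplasmic 2 h replicate 2, the difference for miR-10a in the exact permutation test was 0.41 (adjusted p = 0.027).

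Among the let-7 and miR-125 miRNAs that share hairpin clusters with the family, the 5p arms were higher in the nucleus over all times, and none of them passed at 24 h. Of 12 listed arms 11 were measured, of which let-7c-2-3p comes from a hairpin outside these clusters. Over all times 5 were higher in the nucleus and 6 lower (median log2 ratio -0.86, beside 0.03 over all miRNAs, of which 56.0% passed), and at 24 h 0 were higher and 5 lower (median -0.34, beside 0.11 over all miRNAs, of which 42.6% passed). The 5 that were higher were the 5p arms let-7a-5p, let-7c-5p, let-7e-5p, miR-125a-5p and miR-125b-5p, and the 6 that were lower were 3p arms. let-7c-5p, from the Mir99a cluster but also from another let-7c hairpin, had nuclear counts of 81193 and 87648 (0 h), 77053 and 77569.7 (2 h) and 34994 and 40908 (24 h). Its cytoplasmic counts were 16833 and 17842 (0 h), 17757 and 16974 (2 h) and 34416 and 31177 (24 h). Its nuclear libraries were high at 0 h and 2 h and near the cytoplasmic ones at 24 h, and the log2 nucleus/cytoplasm ratio at 0 h was 2.28 for let-7c-5p and -1.03 for miR-99a-5p. In the Mir99b cluster, let-7e-5p had 23852 and 17742 in nuclear against 4079 and 4881 in cytoplasmic libraries at 0 h, and the ratios at 0 h were 1.29 for miR-125a-5p and -0.09 for miR-99b-5p. Between 24 h and 0 h, 1 of the 11 rose and 6 fell in nuclear libraries (median -0.68, beside -0.02 over all miRNAs, of which 46.6% passed). The 1 that rose was let-7c-2-3p (0.62). In cytoplasmic libraries 3 rose and 5 fell (median -0.20, beside -0.10 over all miRNAs, of which 35.1% passed). The difference in response at 24 h was -2.08 for let-7c-5p and -1.87 for let-7e-5p, where miR-99a-5p had 0.99 and miR-99b-5p 0.07. Names such as let-7a-5p, let-7c-5p and miR-125b-5p stand for the products of several hairpins, so their values cannot be assigned to 1 cluster.

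**Figure D5:**
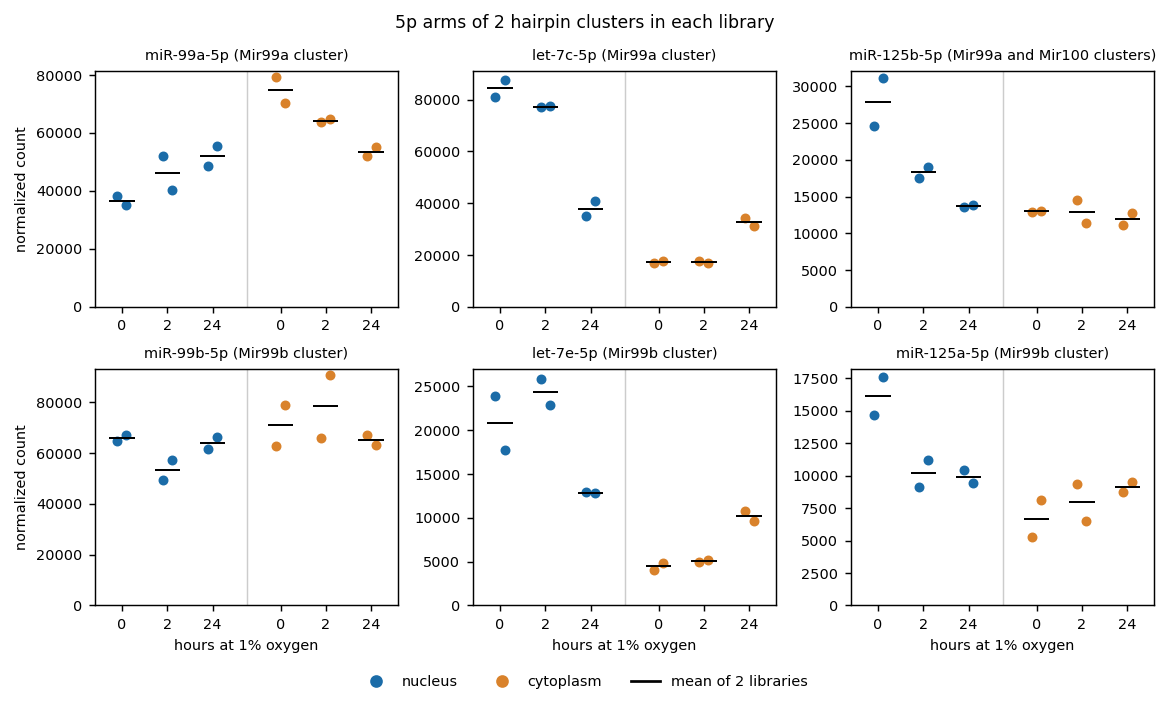
Normalized count (vertical axis, linear, from 0) of the 5p arms of the Mir99a cluster (upper row) and the Mir99b cluster (lower row) in each library, against hours at 1% oxygen, with nuclear libraries in blue on the left and cytoplasmic libraries in orange on the right; bars are the mean of 2 libraries. At 0 h let-7c-5p is higher in the nucleus (81193 and 87648) than in the cytoplasm (16833 and 17842), and miR-99a-5p is lower.

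Of the other miRNAs of the Hox clusters, 3 of 7 listed arms were measured, miR-196a-5p, miR-196b-5p and miR-615-3p, and over all times 0 were higher and 1 lower in the nucleus, where 28.9% of all miRNAs were lower. At 0 h 1 was lower, at 2 h all 3 and at 24 h 2, where 31.1%, 32.9% and 21.4% of all miRNAs were lower. The 1 over all times was miR-615-3p, from the Hoxc cluster, with a log2 ratio of -1.04 ± 0.16 (SE, limma adjusted p = 6.1e-05). miR-196b-5p and miR-196a-5p had ratios of -0.23 and -0.57 over all times, neither past the threshold. miR-196a-5p passed at 2 h (-0.84) and 24 h (-1.09), on low counts. Its nuclear libraries had 13.7 and 29.6 at 2 h and 23.5 and 18.7 at 24 h, and its cytoplasmic libraries 39.7 and 34.7 at 2 h and 54.2 and 38.5 at 24 h. Left-out libraries and other scalings were not examined for it.

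Likeness of profiles was measured as the root mean square difference between centred log2 group means, over the 6 groups, which share libraries and scaling. miR-99b-5p was the nearest of all miRNAs to miR-10a-5p (0.0922), followed by miR-330-5p (0.110), where the median over all other miRNAs was 0.465. The nearest is picked as the smallest distance, so it lies below this median in any case. miR-10b-5p was nearest to miR-212-5p (0.163) and miR-181a-2-3p (0.169), and its distance to miR-10a-5p was 0.562. miR-10b-3p was nearest to miR-125a-3p (0.209) and then to miR-10b-5p (0.283). miR-99a-5p was nearest to miR-350-5p (0.122) and miR-361-3p (0.131), and stood 0.170 from miR-100-5p and 0.277 from miR-99b-5p. miR-100-5p was nearest to miR-30a-3p (0.105) and miR-344-3p (0.121), and miR-99b-5p to miR-30a-3p (0.0856) and then miR-10a-5p. miR-10a-3p was nearest to miR-143-5p (0.168) and miR-34c-3p (0.171), and miR-99b-3p to miR-143-5p (0.0561) and miR-378a-5p (0.0883).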

How the data were processed

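Small RNA of 12 libraries was sequenced by the authors, who demultiplexed with bcl2fastq, trimmed with Trimmomatic, aligned to miRBase with Bowtie2 2.1.0 and removed miRNAs of under 10 reads, and the lowest value left held 10 reads. The deposited signal values are normalized counts, made by the authors by dividing reads by DESeq2 size factors. Names joined by a plus sign and a number were read without that number. Every value (100.0%, within 0.01) returned whole reads, which served limma-voom. log2(normalized count + 1) was fitted for all 350 miRNAs in limma 3.58.1 (R 4.3.3) with a variance trend, on all 12 libraries for comparisons of fractions and on the 6 libraries of a fraction for comparisons of times, with Benjamini-Hochberg adjustment over all 350. Fold changes are on this log2 scale, which slightly understates those of low miRNAs. Within-library ratios were compared by 2-sided exact permutation tests. Both were tested on simulated data. Replicates were labelled by number only. All members are described, with the 2 nearest profiles of each and listed neighbours and markers. Members and lists were chosen with earlier results of these data known. Pseudocount, low-value filter, scaling, test, threshold, a time term, replicate block and left-out libraries were varied.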

Additional observations from a re-analysis of the deposited data

Results flagged for a closer look

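In the nucleus, the log2 ratio of miR-99a-5p to miR-100-5p was 0.38 in replicate 1 of 2 h, far above the other 5 nuclear libraries: its gap to the nearest of them was 0.758 of the whole range, beyond the limit of 0.625 for 6 libraries. In all, 26 groups of 6 libraries were looked at in this way. The limit is set for values of 1 population, whereas each group pools libraries of 0 h, 2 h and 24 h. Groups also share members, so the rate of chance flags is not known.

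The change after 24 h of hypoxia differed between the fractions for 3 members, each more positive in the nucleus in limma. The difference of the log2 fold changes was 0.99 for miR-99a-5p (adjusted p = 0.0027), 0.96 for miR-99b-3p (adjusted p = 0.0079) and 0.66 for miR-100-5p (adjusted p = 0.042). Scaled to the total count they were 0.57, 0.55 and 0.25, of which only that of miR-99a-5p passed (adjusted p = 0.049), and scaled to miR-186-5p 0.51, 0.49 and 0.19, none of which passed.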

How the results depend on the processing

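A pseudocount of 10 and limma-voom on the recovered reads left every member count the same, and limma-voom passed 98 miRNAs as higher and 99 as lower in the nucleus over all times, against 95 and 101 in limma. Of the alternatives that leave no library out, 386 of 459 values of members and ratios kept their direction and their side of the threshold. Between nucleus and cytoplasm over all times, the members passed numbered 8 with libraries scaled to their totals and 8 with totals less miR-21a-5p. Scaled to miR-186-5p, a miRNA used in the study to scale its PCR, 2 passed at 0 h. At 24 h, 5 passed when scaled to the total and 1 with miRNAs averaging under 100 left out, since miR-10b-3p then left the test. Between 24 h and 0 h, 2 passed in the nucleus when scaled to miR-186-5p, and in the cytoplasm 0 when scaled to the total or to miR-186-5p and 1 when scaled to the total less miR-21a-5p. For the difference in response, 1 passed when scaled to the total and 0 when scaled to miR-186-5p. At an adjusted p under 0.01 and at least 2-fold, 2 passed over all times, 2 at 0 h, 2 at 2 h, 1 at 24 h, and 0 for each change between 24 h and 0 h and for the difference in response.

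Scaling moved the median log2 value of all miRNAs as well. Over all times it was 0.03 as deposited (95 higher, 101 lower), -0.18 scaled to the total (59 and 118) and -0.36 scaled to the total less miR-21a-5p (52 and 138). At 0 h it was -0.02 as deposited (110 and 109), 0.26 scaled to miR-186-5p (131 and 75) and -0.55 scaled to the total less miR-21a-5p (66 and 168). At 2 h it was 0.02 as deposited (106 and 115), -0.13 (77 and 123) and -0.38 (64 and 149) with both totals. At 24 h it was 0.11 as deposited (74 and 75), -0.33 (19 and 135) and -0.11 (31 and 98) with both totals and -0.08 (30 and 84) with miR-186-5p. For 24 h against 0 h it was -0.02 in the nucleus as deposited (77 and 86), 0.43 (160 and 52) with the total less miR-21a-5p and -0.19 (41 and 90) with miR-186-5p. In the cytoplasm it was -0.10 as deposited (50 and 73), 0.32 (108 and 32) and 0.04 (51 and 57) with both totals and 0.21 (57 and 26) with miR-186-5p. For the difference in response it was 0.15 as deposited (88 and 74), -0.27 (32 and 105) and 0.46 (125 and 38) with both totals and -0.32 (27 and 103) with miR-186-5p.

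Some estimates turned round, none of them past the threshold as first fitted, and 1 passed after it turned, the nuclear change of miR-99b-5p at 24 h with the total less miR-21a-5p (0.41 (limma adjusted p = 0.014)). Scaled to miR-186-5p, the nucleus/cytoplasm ratio at 0 h was 0.026 (miR-10a-5p) and 0.19 (miR-99b-5p). At 24 h it was -0.33 (miR-10a-5p), -0.32 (miR-100-5p) and -0.35 (miR-99b-3p) with the total, -0.10 (miR-10a-5p), -0.097 (miR-100-5p) and -0.12 (miR-99b-3p) with the total less miR-21a-5p, and -0.071 (miR-10a-5p), -0.064 (miR-100-5p) and -0.091 (miR-99b-3p) with miR-186-5p. The nuclear change at 24 h was 0.41 (miR-99b-5p) and 0.19 (miR-10a-3p) with the total less miR-21a-5p and -0.15 (miR-99b-3p) with miR-186-5p. The cytoplasmic change at 24 h was 0.22 (miR-10a-5p), 0.32 (miR-99b-5p) and 0.21 (miR-100-5p) with the total, 0.027 (miR-99b-5p) with the total less miR-21a-5p, and 0.11 (miR-10a-5p), 0.20 (miR-99b-5p) and 0.090 (miR-100-5p) with miR-186-5p. The difference in response was -0.039 (miR-10a-5p), -0.35 (miR-99b-5p) and -0.21 (miR-10a-3p) with the total, 0.20 (miR-10b-5p) with the total less miR-21a-5p, and -0.097 (miR-10a-5p), -0.41 (miR-99b-5p) and -0.27 (miR-10a-3p) with miR-186-5p. The cause was not tested.

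Leaving out 1 library at a time, the member count ranged from 3 to 5 over all times, 5 to 6 at 0 h, 3 to 7 at 2 h, 2 to 2 at 24 h, 1 to 4 for 24 h against 0 h in the nucleus and 1 to 4 in the cytoplasm, 0 to 1 and 0 to 0 at 2 h, 1 to 3 for the difference in response (1 on leaving out nuclear 24 h replicate 2) and 1 to 2 of the 5 ratios. Estimates near 0 spanned it: the nucleus/cytoplasm ratio of miR-99b-5p at 0 h (-0.26 to 0.073), and at 24 h those of miR-10a-5p (-0.0083 to 0.25), miR-99a-5p (-0.14 to 0.052), miR-99b-5p (-0.083 to 0.026) and miR-99b-3p (-0.042 to 0.25). The same held for the nuclear change at 24 h of miR-99b-5p (-0.098 to 0.010), miR-10a-3p (-0.57 to 0.034) and miR-99b-3p (-0.13 to 0.16), the cytoplasmic change of miR-99b-5p at 24 h (-0.28 to 0.058) and miR-10b-5p at 2 h (-0.023 to 0.45), and the difference in response of miR-10b-5p (-0.30 to 0.049), miR-99b-5p (-0.10 to 0.23) and miR-10a-3p (-0.098 to 0.50).

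Whether same-numbered libraries share a culture is not given. Deviations from the group means of same-numbered nuclear and cytoplasmic libraries correlated across miRNAs at 0.067 (0 h), 0.239 (2 h) and 0.094 (24 h). Between times the same correlation ran from -0.225 (cytoplasm, 0 h and 24 h) to 0.319 (cytoplasm, 0 h and 2 h). Each value compares single libraries, since groups hold 2, so this check cannot decide whether the numbers pair the libraries. With the replicate block, the limma member counts were 4, 6, 6 and 2 between nucleus and cytoplasm (all times, 0 h, 2 h, 24 h), 4 and 3 for 24 h against 0 h in nucleus and cytoplasm and 3 for the difference in response, as without it. With the block 0 of the 5 ratios passed, where the exact sign-flip test over 6 pairs gave miR-10b-5p/miR-10a-5p an adjusted p of 0.16, the smallest that 6 pairs allow a single ratio among 5, so this test could not pass it alone.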
